A study of Arabidopsis thaliana with 18 samples.

Results

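SWEET5 and SWEET13 are members of the SWEET family of sugar transporters, and their transcripts were followed here through flower opening in 3 genotypes of Arabidopsis thaliana. They were found as the probe sets that the platform annotation assigns to only 1 gene at these loci, which gave 2 of the 22810 probe sets on the array and 2 of the 13285 genes that have such a probe set. SWEET5 (AT5G62850) is measured by 247424_at, where the annotation uses its other name AtVEX1, and SWEET13 (AT5G50800) by 248467_at. Both loci lie on chromosome 5. They were chosen by measured values, SWEET5 by its fall between the stages of wild type and SWEET13 by its lower level in buds of the overexpressor than of wild type. The arrays behind these 2 choices were those of WT buds and WT open flowers for SWEET5, and those of OE and WT buds for SWEET13 (WT for wild type and OE for the overexpressor). Every difference of a gene that contains arrays of its own choice is given as a description with no test.

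SWEET proteins are small membrane uniporters that let sugars move down their gradient, in contrast to the proton-coupled carriers that load sugars against one. In Arabidopsis, members of the clade of SWEET5 mainly carry hexoses, and members of the clade of SWEET13 and SWEET14 mainly carry sucrose. Pollen develops without plasmodesmata to the anther wall, so its sugar has to be exported and taken up across membranes. SWEET5 is named VEX1 for its expression in the vegetative cell of pollen. SWEET13 and SWEET14 also carry gibberellin, and loss of both delays anther dehiscence.

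Unopened buds (floral stages 1 to 12, anthers closed) and open flowers (stages 13 to 14, anthesis) were taken from plants 5 weeks old. The genotypes were wild type (WT), the 35S:AtLEJ1 line 5-8 (OE) and the atlej1 mutant (KO). The promoter of OE is the strong, broadly active 35S promoter of cauliflower mosaic virus, and 1 line stands for each altered genotype. Each of the 6 groups held 3 arrays of samples labelled as biological replicates. The series asks which transcripts respond to AtLEJ1. AtLEJ1 itself is named by no probe set in the annotation used here, so its level could not check the genotype labels. In bulk tissue, fewer cells of a type and less RNA per cell cannot be told apart. Of 13 tapetum markers 3 (A9, AMS and SHT) had a probe set, and their summed intensity was 6970 to 8886 on the bud arrays of the 3 genotypes and 28.1 to 415 on the arrays of open flowers, so the 2 stages matched their labels. The log2 ratio of the 3' to the 5' GAPDH control, a measure of RNA integrity, ran from 0.101 to 0.768 in buds and from 0.265 to 0.843 in open flowers, and its ranges overlapped among genotypes.

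SWEET5 was high in buds and dim in open flowers of every genotype. In WT buds it read 1815, 2203 and 2150 intensity units for replicates 1, 2 and 3. In WT open flowers it read 46.7, 89.7 and 66.5. All 3 bud arrays thus lay above all 3 arrays of open flowers, and the latter lay below the 40th percentile of their arrays, the level used as the filter. Groups did not overlap in that direction for 17.7% of the tested probe sets, and 11.1% were called lower (adjusted p under 0.05). The log2 difference in WT, one of those that chose the gene, was -4.66 ± 0.27 (SE), on the log2(intensity + 16) scale used here unless said otherwise.

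SWEET5 also fell in the other genotypes, whose arrays did not choose the gene. In OE, SWEET5 read 2692, 3126 and 2512 in buds and 68.8, 63.2 and 45.7 in open flowers. In KO it read 2603, 2606 and 1769 in buds and 172, 55.9 and 105 in open flowers. No bud array overlapped with an array of open flowers in either genotype, which in that direction held for 25.6% of the tested probe sets in OE and 17.7% in KO. The log2 changes were -5.22 ± 0.27 in OE (adjusted p = 2.4e-10) and -4.29 ± 0.27 in KO (adjusted p = 3.7e-09), and they kept their call in all 30 alternatives. Lower calls made up 16.9% of the tested probe sets between the stages of OE and 9.8% of those between the stages of KO. Because 8 of the 9 arrays of open flowers lay below the 40th percentile, the size of the fall depends on the pseudocount. With each dim array raised to its own 40th percentile and no pseudocount added, the fall was at least 17.0-fold in WT, 23.5-fold in OE and 16-fold in KO.

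**Figure D1:**
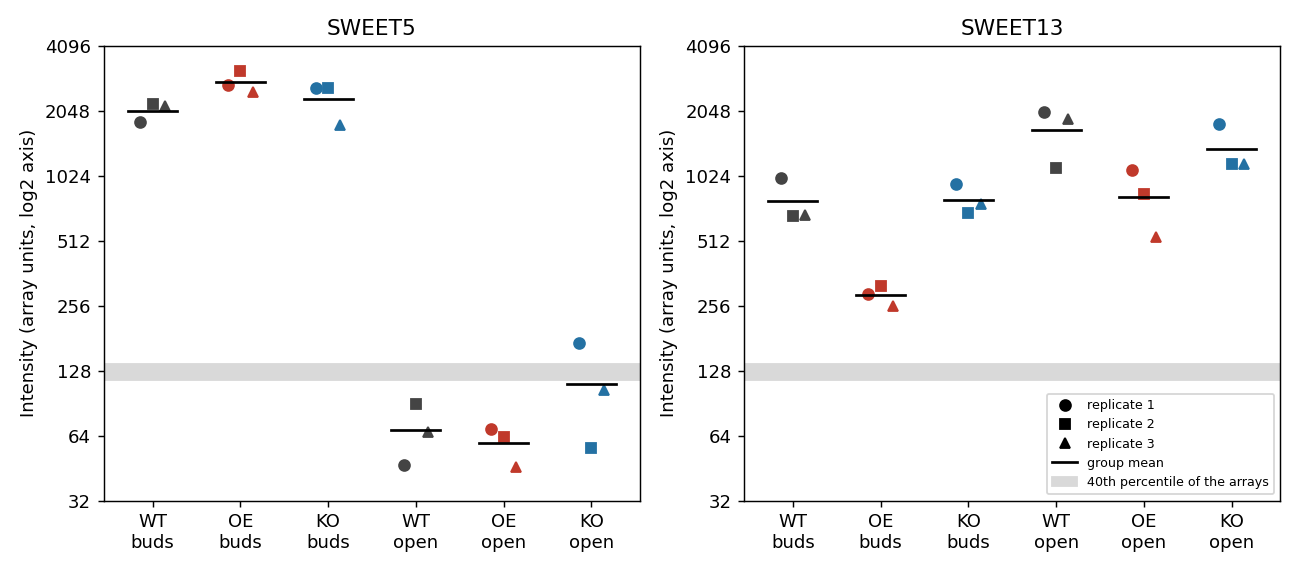
Intensity of SWEET5 (left) and SWEET13 (right) on each of the 18 arrays, on a log2 axis in array units. Symbols mark the replicate number, horizontal lines the mean of the 3 arrays of a group, and the grey band the range of the 40th percentile of the arrays (116 to 138). SWEET5 lies between 1769 and 3126 in buds and between 45.7 and 172 in open flowers, while SWEET13 is lowest in OE buds (255 to 317).

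No difference of SWEET5 between genotypes passed where it was tested. In order of their means the groups were OE buds (2777 ± 316, SD, n = 3), KO buds (2326 ± 482), WT buds (2056 ± 211), KO open flowers (111 ± 58.6), WT open flowers (67.7 ± 21.5) and OE open flowers (59.2 ± 12.1). Neighbours in this order overlapped except WT buds and KO open flowers. In buds, as a description, the log2 difference of OE from WT was 0.43 ± 0.27 (SE). The 3 OE bud arrays lay above the 3 WT bud arrays, as was the case in that direction for 5.96% of all tested probe sets. KO differed from WT by 0.16 ± 0.27 in buds, also a description. OE differed from KO by 0.27 ± 0.27 (adjusted p = 1, interval -0.30 to 0.84).

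In open flowers 1 mutant array stood above the others. The KO array of replicate 1, at 172, was the one array of open flowers on which SWEET5 exceeded the 40th percentile. The tapetum markers were also highest there, with a summed intensity of 415 against 28.1 and 171 on the KO arrays of replicates 2 and 3, 31.9 to 50.5 in WT and 33.3 to 111 in OE. The part of such transcripts in the SWEET5 value was not tested. As a description, the log2 difference of KO from WT in open flowers was 0.53 ± 0.27, and without that array it was 0.19. OE differed from WT by -0.13 ± 0.27 and from KO by -0.66 ± 0.27 (adjusted p = 0.223, interval -1.23 to -0.092), a difference of -0.32 without the KO array of replicate 1. The stage change of OE minus that of KO was -0.93 ± 0.38 (adjusted p = 0.446), in a comparison that called 0.265% of the tested probe sets. As descriptions, the stage change of SWEET5 differed from that of WT by -0.56 ± 0.38 in OE and by 0.37 ± 0.38 in KO. The latter was 0.028 without the KO open-flower array of replicate 1.

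SWEET5 fell together with the tapetum markers and not with every pollen marker. All 3 measured tapetum markers, the ones set against the stage labels above, fell in each genotype. Of all tested probe sets 11.1% were called lower in WT, 16.9% in OE and 9.8% in KO. A9, a tapetal lipid transfer protein gene, went from 4217 ± 482 in KO buds to 75.5 ± 58.0 in KO open flowers (log2 change -5.84 ± 0.46, adjusted p = 3.0e-08). AMS, a transcription factor of the tapetum, and SHT, a tapetal acyltransferase, had log2 changes of -4.30 and -5.41 in KO. In KO open flowers A9 and AMS exceeded the 40th percentile on 0 of 3 arrays and SHT on 1. Under the alternatives other than leaving out arrays, the KO change of A9 ran from -6.37 to -5.04. That of AMS ran from -4.96 to -3.32 and that of SHT from -6.15 to -4.52. Of 10 mature pollen markers 6 were tested, of which 2 rose and 2 fell in KO, where 11.1% of all tested probe sets rose and 9.8% fell. ANX2, a receptor kinase of the pollen tube, rose by 2.51, and the pollen tubulin gene TUA1 rose by 1.38. ANX2 exceeded the 40th percentile on 0 of 3 KO bud arrays. The MADS-box genes AGL104 and AGL66, which act in late pollen development, had log2 changes of -1.35 and -0.64. In KO open flowers they exceeded the 40th percentile on 0 and 1 of 3 arrays. The median over the 6 was 0.30 in KO, 0.091 in WT and -0.17 in OE. Over all tested probe sets it was -0.031, -0.036 and -0.076. The call of AGL66 was lost without any one of 5 of the 6 KO arrays (adjusted p of 0.0755 to 0.20).

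SWEET13 moved the opposite way between the stages. In WT it read 1004, 668 and 673 in buds and 2020, 1118 and 1880 in open flowers of replicates 1, 2 and 3. In OE it read 289, 317 and 255 in buds and 1090, 843 and 531 in open flowers. In KO it read 935, 689 and 760 in buds and 1772, 1157 and 1165 in open flowers. Within each genotype every array of open flowers lay above every bud array, and all 18 arrays lay above the 40th percentile. Groups did not overlap in that direction for 16.6% of the tested probe sets in WT, 19.6% in OE and 16.3% in KO.

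The log2 rise of SWEET13 in KO, whose arrays did not choose the gene, was 0.75 ± 0.26 (adjusted p = 0.0488). Higher calls made up 11.1% of the tested probe sets there. As descriptions, since the bud arrays of both genotypes chose the gene, the differences between stages were 1.06 ± 0.26 in WT and 1.41 ± 0.26 in OE. In KO, 18 of 30 alternatives ended the call. The highest adjusted p among them was 0.208, reached when the KO open-flower array of replicate 1 was left out (0.55). Whether the stage changes of SWEET13 differ between genotypes was not tested, since each such difference contains arrays of its choice. The stage change of OE minus that of KO was 0.66 ± 0.37, that of KO minus WT was -0.31 ± 0.37 and that of OE minus WT was 0.35 ± 0.37.

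Across genotypes, SWEET13 was lowest in the overexpressor at both stages. The mean in OE buds was 287 ± 31.3 (SD, n = 3), against 782 ± 192 in WT buds and 795 ± 127 in KO buds. The highest OE bud array, at 317, lay under the lowest array of either other genotype, at 668. Groups did not overlap in that direction for 4.76% of the tested probe sets between OE and WT buds and for 5.25% between OE and KO buds. The difference from WT, which chose the gene, was -1.37 ± 0.26, in a comparison that called 0.126% of the tested probe sets lower, and by replicate number it was -1.74, -1.04 and -1.35. The difference from KO, which contains the same OE arrays and is a description too, was -1.41 ± 0.26, or 2.66-fold lower in OE. The differences by replicate number were -1.64, -1.08 and -1.52. Of the tested probe sets 0.179% were called lower in OE than in KO buds. Without any one of the 6 bud arrays of OE and KO the difference of SWEET13 ran from -1.51 to -1.29.

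In open flowers SWEET13 was also lowest in OE, with more spread. The means were 1673 ± 486 in WT, 1365 ± 353 in KO and 821 ± 280 in OE. No OE array reached the lowest array of WT (1118) or KO (1157), which in that direction held for 7.11% of the tested probe sets against WT and 12.9% against KO. The log2 difference of OE from WT was -1.02 ± 0.26 (adjusted p = 0.0914), and that from KO was -0.75 ± 0.26 (adjusted p = 0.15), so neither passed. With the replicate number as a block both passed (adjusted p = 0.0093 and 0.0309). Called lower without the block were 0.503% of the tested probe sets against WT and 1.14% against KO. By replicate number the differences of OE from WT were -0.88, -0.40 and -1.79, all negative. Without the WT array of replicate 2 the difference from WT passed (-1.29, adjusted p = 0.0347). Without the OE array of replicate 3 the difference from WT was -0.75 (adjusted p = 0.404) and that from KO was -0.47.

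Between KO and WT no difference of SWEET13 passed in open flowers, at -0.27 ± 0.26 (adjusted p = 1, interval -0.82 to 0.27). In buds, as a description, KO differed from WT by 0.038 ± 0.26. The arrays of both genotypes overlapped at both stages. Between KO and WT, limma called 0.00662% of all tested probe sets at the bud stage and 0.0132% at the open stage. Ordered by mean, the 6 groups of SWEET13 were WT open flowers, KO open flowers, OE open flowers, KO buds, WT buds and OE buds. Neighbours overlapped except KO and OE open flowers, and WT and OE buds.

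**Figure D2:**
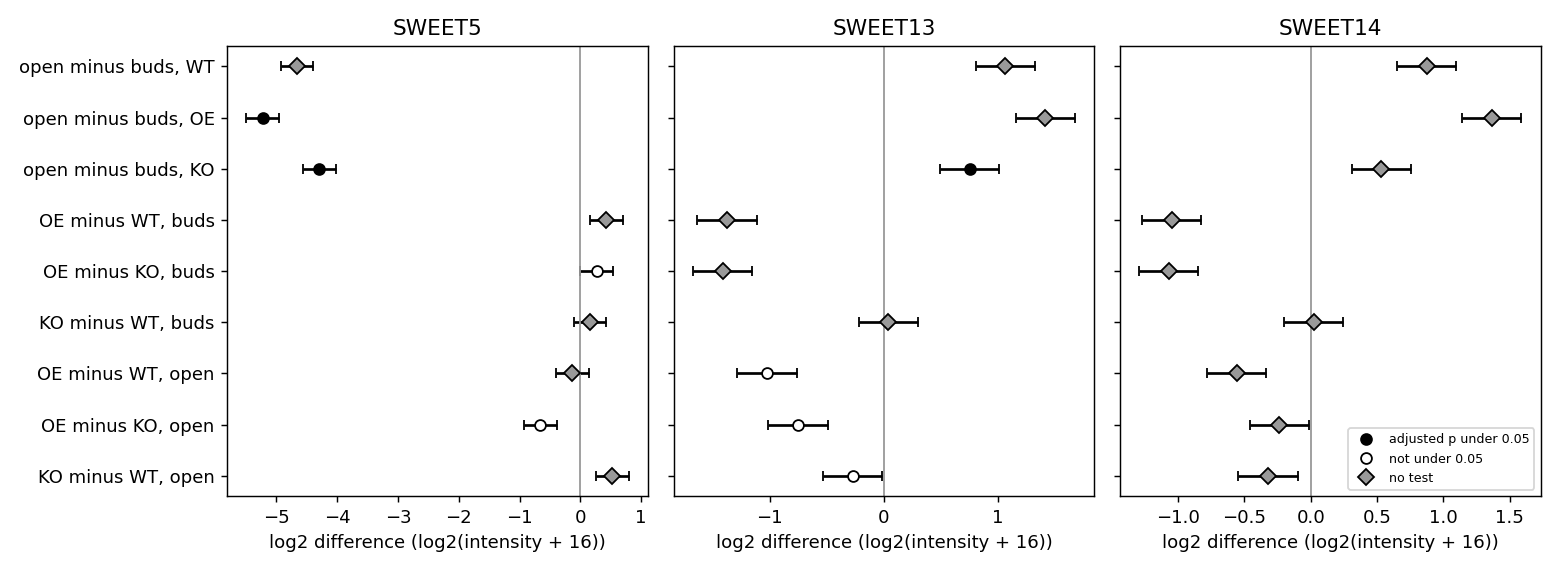
Log2 differences of SWEET5, SWEET13 and SWEET14 between stages and genotypes, with bars of 1 SE from the fit over all 18 arrays. Filled circles had an adjusted p under 0.05, open circles did not, and grey diamonds were not tested, because they contain arrays that chose the gene or, for SWEET14, because it was picked for its likeness to SWEET13 over the same arrays. SWEET13 and SWEET14 lie below 0 in each comparison of OE with another genotype, and the horizontal scale differs between panels.

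SWEET14 (AT4G25010), which like SWEET13 carries sucrose and gibberellin, had the profile most like that of SWEET13 among the single-gene probe sets that passed the filter. Likeness was measured as the root mean square difference over the 18 arrays of log2(intensity + 16), each probe set centred on its own mean. SWEET14 ranked 1 of 8203 in likeness to SWEET13, with a difference of 0.306. In buds it read 914, 963 and 774 in WT, 311, 581 and 402 in OE, and 1046, 875 and 781 in KO. In open flowers it read 1807, 1195 and 1998 in WT, 1331, 1011 and 989 in OE, and 1594, 1256 and 1096 in KO. The OE bud arrays lay below all other bud arrays, while in open flowers the OE arrays overlapped with those of WT and KO.

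Because the likeness was measured on the arrays that chose SWEET13, the differences of SWEET14 are descriptions with no test. In buds OE differed by -1.05 ± 0.22 from WT and by -1.07 ± 0.22 from KO. In open flowers the differences of OE were -0.56 ± 0.22 from WT and -0.24 ± 0.22 from KO. Between stages SWEET14 differed by 0.88 ± 0.22 in WT, 1.36 ± 0.22 in OE and 0.53 ± 0.22 in KO. Whether the 2 probe sets pick up each other's transcript was not tested.

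**Figure D3:**
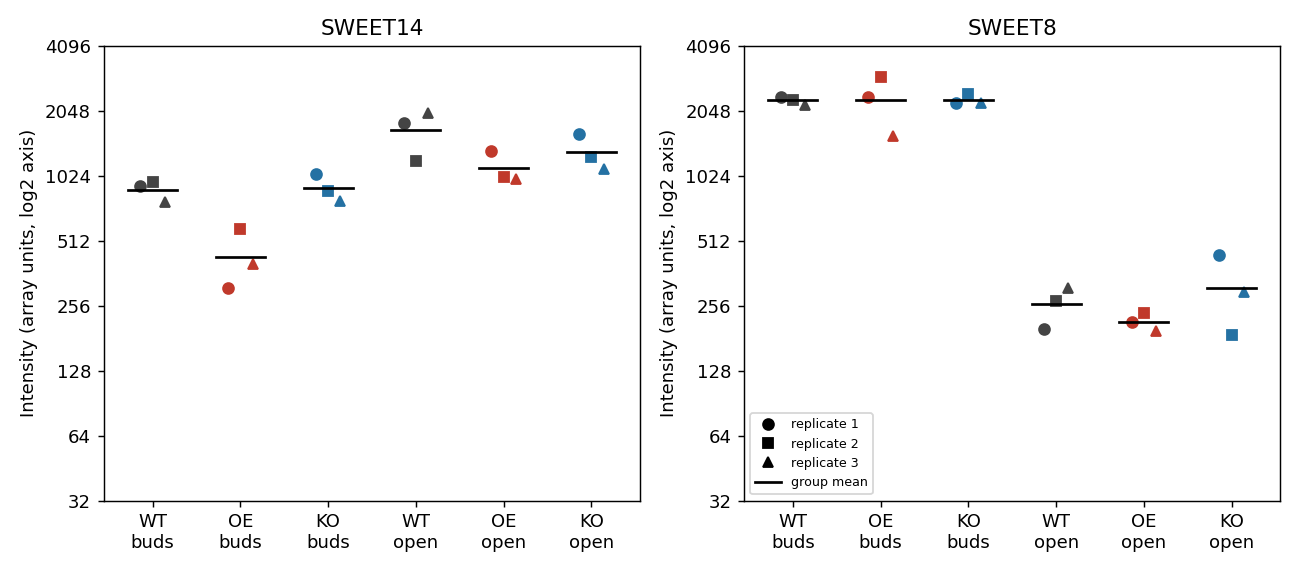
Intensity of SWEET14 (left) and SWEET8 (right) on each of the 18 arrays, on a log2 axis in array units, with symbols for the replicate number and lines for the mean of 3 arrays. SWEET14 is lowest in OE buds (311 to 581), and SWEET8 lies between 1574 and 2939 in buds and between 187 and 439 in open flowers.

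The other nearest profiles to SWEET13 were those of AT1G21010, AT4G16640, AT3G47250 and AT3G49790, with differences of 0.321, 0.437, 0.449 and 0.475. AT1G21010 read 107 ± 16.5 in OE buds against 237 ± 40.2 in WT buds and 255 ± 54.6 in KO buds (SD, n = 3). On no OE bud array did AT1G21010, AT4G16640 or AT3G49790 exceed the 40th percentile. AT4G16640 exceeded it on 1 of 3 arrays of WT buds and 0 of KO buds. AT3G49790 exceeded it on 1 array of WT buds and 1 of KO buds, so both were dim in buds. Nearest to SWEET5 were AT5G25550, AT5G44300, AT3G28840, AT2G33690 and AT3G21970, with differences of 0.270, 0.298, 0.331, 0.349 and 0.353. AT5G44300 went from 3852 ± 76.9 in WT buds to 139 ± 44.9 in WT open flowers. With a pseudocount of 1 or 64, 2 of these 5 remained among the nearest to SWEET5, whose level in open flowers is dim. Nearness was measured on the arrays that chose SWEET5 and SWEET13, so the levels of all these probe sets are descriptions with no test.

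**Figure D4:**
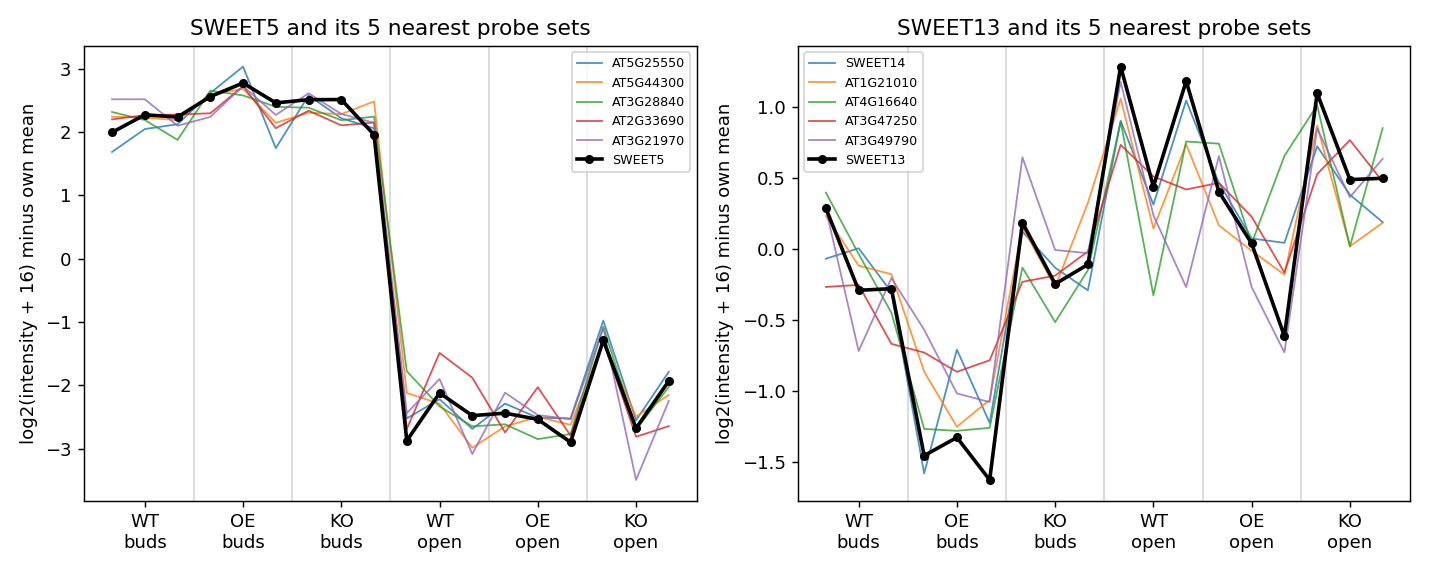
Log2(intensity + 16) minus its own mean over the 18 arrays, for SWEET5 (left, black) and SWEET13 (right, black) and the 5 single-gene probe sets nearest to each (coloured). Arrays are ordered by group and, within a group, by replicate number, and the lines only guide the eye. All 5 profiles on the left drop between buds and open flowers, and all 5 on the right are low in OE buds. The probe sets were picked for this likeness over the same arrays.

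The rest of the family sets these 2 genes in context. Of the 17 SWEET genes 16 had a probe set and 14 were bright enough to test. SWEET6 and SWEET16 were not above the 40th percentile on any array, with group means of 12.5 to 58.2 and 35.1 to 49.5. SWEET12 is named in no single-gene probe set. Of the 12 tested genes other than SWEET5 and SWEET13, 6 rose and 5 fell in WT, 6 rose and 4 fell in OE, and 5 rose and 5 fell in KO. SWEET14, which was picked for its likeness to SWEET13, is 1 of the 6 in WT and in OE, where its rise is a description. Of all tested probe sets 12.3% rose and 11.1% fell in WT, 14.3% and 16.9% in OE, and 11.1% and 9.8% in KO. The median log2 change of these 12 was 0.73 in WT, 0.74 in OE and 0.47 in KO, beside -0.036, -0.076 and -0.031 over all tested probe sets.

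Of the clade of SWEET5, SWEET7 and SWEET8 fell too, and SWEET4 rose. SWEET8, which is required for the pollen wall and is also called RPG1, fell from 2292 ± 97.0 in WT buds to 260 ± 55.6 in WT open flowers (SD, n = 3; log2 change -3.08 ± 0.24, adjusted p = 2.5e-08). Its changes in OE and KO were -3.27 and -2.91. It was the SWEET gene with the profile nearest to that of SWEET5, at a difference of 0.857, which ranked 94 of 8203. Like SWEET5 it was highest among arrays of open flowers on the KO array of replicate 1, at 439. SWEET7 had changes of -2.40, -2.45 and -2.23 in WT, OE and KO. SWEET4, a hexose transporter, rose by 1.42, 1.24 and 1.28.

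Of the clade of SWEET13, SWEET9, SWEET11 and SWEET15 rose in all 3 genotypes and SWEET10 fell in WT and KO. SWEET9, the sucrose exporter of nectar secretion and the 1 measured of 3 nectary markers, rose from 527 ± 358 in WT buds to 4330 ± 1436 in WT open flowers (log2 change 3.14 ± 0.44, adjusted p = 2.4e-05). Its level varied among bud arrays, at 299, 940 and 342 in WT, 252, 850 and 317 in OE, and 329, 837 and 489 in KO, highest in replicate 2 of each genotype. SWEET11, which exports sucrose for phloem loading in leaves, rose by 1.34, 1.54 and 1.20 in WT, OE and KO. SWEET15, also known as the senescence gene SAG29, rose by 1.48, 1.12 and 1.15. SWEET10, whose locus number is next to that of SWEET13, had log2 changes of -0.94 in WT (adjusted p = 0.0270), -1.14 in KO (adjusted p = 0.0087) and -0.56 in OE (adjusted p = 0.169, and 0.0067 with a replicate block). SWEET10 thus went the other way from SWEET13 between the stages of WT and KO, and its call in WT was lost without the WT bud array of replicate 1 or 2 or the WT open-flower array of replicate 2 or 3 (adjusted p of 0.0578 to 0.119). The SWEET10 call in KO was lost without the KO open-flower array of replicate 2 or 3 (adjusted p = 0.0591 and 0.0517). Without replicate 2 or 3 of every group both calls of SWEET10 were lost (adjusted p of 0.128 to 0.237).

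Members of the remaining clades went both ways. SWEET3 had log2 changes of -2.71 in WT, -1.64 in OE and -2.54 in KO, all called. SWEET1, a glucose transporter, rose by 0.62, 0.87 and 0.41 in WT, OE and KO. The SWEET1 call in KO (adjusted p = 0.0412) was ended by 13 of 30 alternatives, with 0.27 (adjusted p = 0.226) without the KO bud array of replicate 3. SWEET17, a fructose transporter of the vacuole, had changes of -0.94, -1.12 and -0.77. In KO the SWEET17 call was lost without the bud array of replicate 1 or the open-flower array of replicate 3 (adjusted p = 0.0538 and 0.0548). Without replicate 3 of every group the WT calls of SWEET1 and SWEET17 were lost (adjusted p = 0.0503 and 0.105), as was the OE call of SWEET15 (adjusted p = 0.0526). SWEET2, a vacuolar glucose transporter, did not pass, at 0.84, 0.60 and 0.86 (adjusted p = 0.0938, 0.204 and 0.0943), and passed with a replicate block (adjusted p = 0.0079, 0.0414 and 0.0075).

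**Figure D5:**
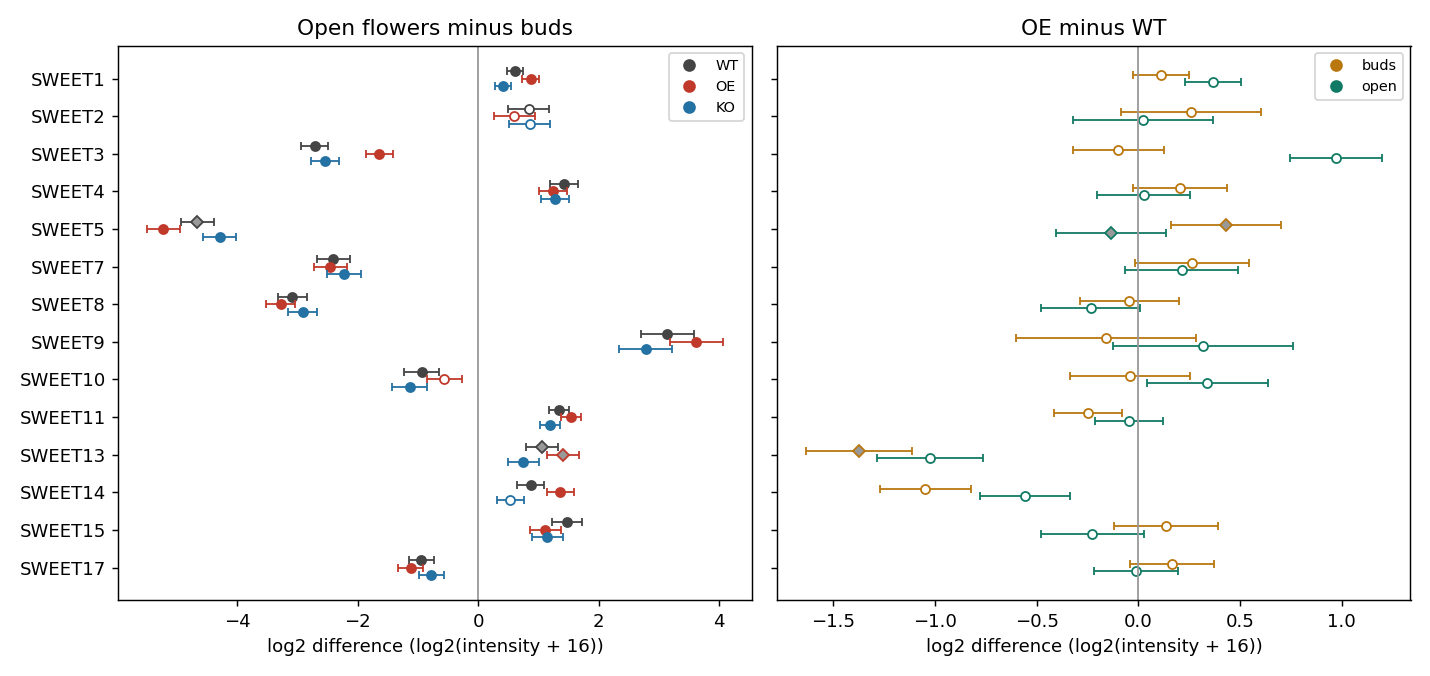
Log2 differences of the 14 tested SWEET genes between open flowers and buds in each genotype (left) and between OE and WT in each stage (right), with bars of 1 SE. Filled circles had an adjusted p under 0.05, open circles did not, and grey diamonds are differences with arrays that chose SWEET5 or SWEET13, which were not tested. SWEET14 is drawn as circles, but its differences are descriptions, because it was picked for its likeness to SWEET13. On the right, SWEET13 and SWEET14 lie furthest below 0 in buds, and SWEET3 lies furthest above 0 in open flowers.

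Among the other 12 SWEET genes, all calls between genotypes except 1 of SWEET1 were made only with the replicate block. Between OE and WT buds, where 0.146% of the tested probe sets were called, limma called 0 of these 12. SWEET14 was the 1 of the 12 at an unadjusted p under 0.05, beside 860 of all 15113 tested probe sets. It was also the 1 called lower with a replicate block, which called 71 of the 15113 there. Because SWEET14 was picked for its likeness to SWEET13 over these same arrays, both counts are descriptions and no test of SWEET14. Differences of the 12 ran from -1.05 for SWEET14 to 0.26 for SWEET7. Between OE and KO buds limma called 0 of the 12, beside 31 of the 15113. SWEET14 was again the 1 at an unadjusted p under 0.05, beside 596 of the 15113. It was also the 1 called with the block, beside 61, and both counts are again descriptions. Between KO and WT limma called 0 of 12 in buds and 0 of 12 in open flowers, beside 0.00662% and 0.0132% of all tested probe sets. At an unadjusted p under 0.05 were 0 of the 12 at either stage, beside 429 of the 15113 in buds and 508 in open flowers. In open flowers SWEET3 was higher on all OE arrays (324, 406 and 662) than on those of WT (197, 299 and 176), with a log2 difference of 0.97 ± 0.22 (adjusted p = 0.0587, and 0.0334 with a replicate block). Groups did not overlap in that direction for 6.31% of the tested probe sets. In that comparison limma called 0 of the 12, beside 103 of the 15113. With the block it called 1, SWEET3, beside 236. An unadjusted p under 0.05 was found for 3 of the 12, beside 1511 of the 15113, with SWEET14 counted as a description. Between OE and KO open flowers 1 of the 12 was called, and 2 had an unadjusted p under 0.05, beside 2518 of the 15113. With a replicate block 3 were called, all higher in OE, where the block called 2% of the tested probe sets higher. SWEET3 (0.83 ± 0.22, adjusted p = 0.0709, and 0.0387 with the block) and SWEET10 (0.59 ± 0.30, adjusted p = 0.322, and 0.0298 with the block) gained their calls this way. SWEET1 was called without the block too, at 6162 ± 854 against 4037 ± 373 (0.60 ± 0.14, adjusted p = 0.0357), where 0.377% of the tested probe sets were called higher. Quantile normalization ended that call of SWEET1 (0.50, adjusted p = 0.0951), as did leaving out any KO open-flower array or the OE one of replicate 1 or 3 (adjusted p of 0.0555 to 0.192).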

How the data were processed

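Affymetrix ATH1 arrays were hybridised with biotin-labelled cRNA from 5 µg of total RNA, 1 sample per array, per the labels' protocols. For each of 18 arrays the authors deposited a linear intensity for 22810 probe sets. Which software made these intensities is not given in the sources used here. Their mean between the 2nd and 98th percentiles was 499.82 to 499.85 on every array, so the arrays had been scaled to a common level, and array medians ran from 202 to 232. The number of arrays limits the precision.

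The deposited intensities were put on a log2(intensity + 16) scale. Of the probe sets, 64 controls and 1 with an empty cell were dropped, as were 7632 that exceeded the 40th percentile of an array on fewer than 3 arrays. limma 3.58.1 (R 4.3.3) was run on the 15113 others with a mean for each of the 6 groups, leaving 12 residual degrees of freedom. Its variance prior followed intensity, and p-values were adjusted by Benjamini-Hochberg over the 15113 in each comparison. The robust alternative used statmod 1.5.0. Calls have an adjusted p under 0.05, from limma throughout. Errors of log2 differences are standard errors of this fit, intervals cover 95%, and SDs are over 3 arrays. The fit was tested on simulated data with independent noise on each array, and so without a tie between arrays of the same replicate number. Plots were made in Python 3.11.15 (matplotlib 3.10.9).

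Groups come from the sample titles. The free-text description calls every sample wild-type unopened flowers, against the titles of 15 arrays, and was not used. Locus tags of TAIR10.1 were assigned to probe sets through Entrez numbers. The members, gene lists and tests were chosen with earlier results of these data known. Named were all SWEET genes with a probe set, up to 4 tested members of each other list with the smallest p between the stages of KO, and the 5 probe sets nearest to each member.

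Replicate numbers run from 1 to 3 in each group. Deviations of same-numbered arrays from their group means correlated at 0.106 to 0.599 across probe sets, which are not independent, for every pair of groups compared, against -0.488 to 0.356 for different numbers. The numbers were therefore taken to pair the arrays, from the data and not from a label, and values with the replicate number as a block are given where they change the call of a tested difference. Alternatives were the pseudocount, the filter, the scaling, the variance prior, the groups fitted, the replicate block and leaving out arrays.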

Additional observations from a re-analysis of the deposited data

How the results depend on the processing

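Differences of SWEET5 and SWEET13 were computed under 30 alternatives, of which the 3 without replicate 1, 2 or 3 of every group were chosen after seeing the data. For SWEET13 in KO the stage change lost its call with a pseudocount of 1 (0.76), with no filter (0.75) and with no intensity trend (0.75), and ran from 0.55 to 0.87 with arrays left out. With arrays left out the stage change of SWEET13 in WT ran from 0.86 to 1.33, its OE difference from KO in buds from -1.58 to -1.29, and its OE difference from WT in open flowers from -1.34 to -0.64. A replicate block added calls for SWEET13 in open flowers, for OE against WT (-1.02) and against KO (-0.75). It changed no other call of SWEET5 or SWEET13. The KO difference of SWEET13 from WT in buds turned to -0.038 with arrays centred on their medians, and ran from -0.083 to 0.23 with arrays left out. For SWEET5 in open flowers, OE against WT ran from -0.42 to 0.051 and KO against WT from -0.0043 to 1.07. KO against WT in buds ran from -0.019 to 0.38. The WT stage change of SWEET5 was -4.02 with a pseudocount of 64. With arrays left out, the stage change of KO minus WT for SWEET5 ran from 0.015 to 0.95, and that of OE minus WT for SWEET13 from 0.085 to 0.75. The uncalled KO difference of SWEET14 from WT in buds was -0.054 with centring and ran from -0.089 to 0.12 with arrays left out, and the uncalled stage change of STP3 in KO ran from -0.34 to 0.19. The cause of these shifts was not tested. Counts of called probe sets rose with the block from 22 to 71 for OE against WT in buds, from 31 to 61 for OE against KO in buds, from 103 to 236 for OE against WT in open flowers and from 230 to 827 for OE against KO there. Leaving out arrays gave 0 to 30, 1 to 35, 10 to 219 and 21 to 372. Dim signal limits the SWEET5 values in open flowers.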

Other observations

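STP3, a monosaccharide carrier of the STP family, rose between the stages of OE, where 14.3% of the tested probe sets rose. It went from 237 ± 47.6 in OE buds to 531 ± 108 in OE open flowers (SD, n = 3; log2 change 1.11 ± 0.21, limma adjusted p = 0.00052). Its stage change was 0.36 ± 0.21 in WT (adjusted p = 0.269) and -0.17 ± 0.21 in KO (adjusted p = 0.688). The stage change of OE minus that of WT was 0.75 ± 0.30 (adjusted p = 0.477) and that of OE minus KO was 1.28 ± 0.30 (adjusted p = 0.0924), so the changes were not shown to differ between genotypes. In open flowers STP3 was higher in OE than in KO (236 ± 77.4) by 1.15 ± 0.21 (adjusted p = 0.0083), where 0.377% of the tested probe sets were called higher. The KO arrays there ran from 148 to 293. Only the stage change of STP3 in KO was run under the alternatives, so whether its calls hold under them was not tested. VI1, a vacuolar invertase, had stage changes of -0.054 to 0.16 over the 3 genotypes, and SPS4F, a sucrose phosphate synthase, of 0.14 to 0.48, and limma called neither. These were the tested ones of 14 STP carriers, 8 invertases and 10 genes of sucrose synthesis and cleavage. Of 9 sucrose carriers, 8 gibberellin synthesis genes and 3 phloem markers 0 had a single-gene probe set.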
